A study of Mus musculus with 20 samples.

Results

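The short structural RNA genes are 10 of the 36724 genes in the deposited table, Rpph1, Rmrp, Rn7sk, Rn7s1, Rn7s2, Rny1, Rny3, Rnu7, Rnu5g and Terc, taken by their names. They were chosen by their log2 RPKM values in the 6 groups and by their spread within the second-round libraries, so their levels and differences are given as a description, without p-values. Counts of members that the test over all genes called are printed beside the share of all genes called, and nothing is read from them. Each encodes an RNA that is not translated and works inside a complex with proteins. Rpph1 and Rmrp encode the catalytic RNAs of RNase P, which trims the 5′ ends of tRNA precursors, and of RNase MRP, which acts in ribosomal RNA maturation. Rn7sk encodes 7SK, which holds the elongation kinase P-TEFb in an inactive complex, and Rn7s1 and Rn7s2 encode the RNA of the signal recognition particle (SRP), which brings ribosomes to the endoplasmic reticulum. Rny1 and Rny3 encode Y RNAs, bound by the Ro and La proteins. Rnu7 encodes U7, which directs the cutting of histone mRNA precursors, Rnu5g encodes a U5 RNA of the spliceosome, and Terc encodes the template RNA of telomerase. Most of these RNAs are made by RNA polymerase III in all cells, and they carry no poly(A) tail. U7, U5 and the telomerase RNA are made by RNA polymerase II.

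The libraries came from untreated neurospheres, floating clusters grown from neural stem and progenitor cells of adult C57BL6 mice aged 8 to 12 weeks. HC2 stands for second-round hippocampal spheres at culture day 5, with 4 Egfl7 knockout and 4 wild-type libraries from male donors. SVZ stands for first-round spheres of the subventricular zone at day 3, with 3 knockout and 3 wild-type libraries from male donors. HC1 stands for first-round hippocampal spheres at day 5, with 3 male knockout and 3 female wild-type donors, so genotype and donor sex cannot be told apart there. The knockout is labelled as such, with no word on which cells lost the gene. The design text calls the libraries biological replicates and the titles number the donor mice. Some numbers recur across groups, as with knockout mouse 1 in HC2 and HC1 and knockout mouse 4 in HC2 and the SVZ. Wild-type mice 5 and 6 recur in HC2 and the SVZ, male in both. Whether such numbers mark 1 animal is not stated. Wild-type mice 2 and 3 are male in HC2 and female in HC1, so there the number alone marks no animal, and libraries were treated as independent.

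Levels are in RPKM, reads scaled to gene length and to the mapped reads of the library, and differences are on the log2(RPKM + 1) scale. The size of 1 read, read from the steps between low values, gave about 17800000 to 31200000 mapped reads in the 8 second-round libraries and 11700000 to 13900000 in the 12 first-round libraries. Egfl7, the targeted gene, was at 0 in the 4 HC2 and 3 HC1 knockouts and at 0.566 to 1.59 RPKM in the 7 hippocampal wild types. In the SVZ, Egfl7 stood at 2.86 RPKM in the library labelled knockout replicate 2 and at 0 in the one labelled wild type replicate 3. Both go against their labels, so the main SVZ differences are also given without them. Summed over 6 markers, neural stem and progenitor genes held 4216 RPKM or more in every library. Of 5 microglial markers, 2 to 4 were at 0 in all libraries of a group, and their sum stayed at or under 0.192 RPKM.

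The sequences below show how close the Y RNA copies are and what some of these RNAs are recognised by. They are the GENCODE M21 transcripts on GRCm38, written as DNA, 5′ to 3′. The transcripts of Rn7s1 and Rn7s2, both on chromosome 12, were identical over all 300 bases, so reads cannot be told apart between them.
The Y RNAs lie on chromosome 6, 6346 bases apart, Rny1 on the minus strand (chr6:47788069-47788180) and Rny3 on the plus strand (chr6:47781624-47781725). They shared 81 identical bases over 112 aligned columns, 72.3%, and capitals mark the shared bases, which include most of both ends.
Rny1: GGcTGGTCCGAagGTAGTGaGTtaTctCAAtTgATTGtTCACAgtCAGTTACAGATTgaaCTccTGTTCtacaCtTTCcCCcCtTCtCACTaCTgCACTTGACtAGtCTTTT
Rny3: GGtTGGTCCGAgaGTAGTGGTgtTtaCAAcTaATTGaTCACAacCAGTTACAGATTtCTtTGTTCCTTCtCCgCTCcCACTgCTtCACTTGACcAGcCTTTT
In the U7 gene (chr6:124741225-124741286, minus strand), capitals mark the stretch at bases 21 to 29 that takes up the ring of Sm and Sm-like proteins.
Rnu7: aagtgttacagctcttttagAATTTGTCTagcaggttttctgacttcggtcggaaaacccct
The first 100 bases of 7SK (chr9:78175534-78175633, minus strand) hold the hairpin region bound by HEXIM proteins, and capitals mark every GATC in them, 3 in all. HEXIM is known to bind such letters in this hairpin, but not each marked copy need be a binding site. In the first 100 bases of the deposited Terc interval (chr3:96414734-96414833, minus strand), capitals mark bases 3 to 10, the template for telomere repeats.
Rn7sk: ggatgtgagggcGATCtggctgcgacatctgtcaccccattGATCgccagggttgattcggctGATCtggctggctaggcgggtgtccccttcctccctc
Terc: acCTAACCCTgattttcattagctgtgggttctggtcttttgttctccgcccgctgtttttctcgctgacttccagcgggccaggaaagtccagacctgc
Rpph1 lies on chromosome 14 at 50807447 to 50807771, minus strand, and Rmrp on chromosome 4 at 43492785 to 43493059, minus strand, in the positions deposited with the table. The 10 genes were deposited with lengths between 62 bases for Rnu7 and 397 bases for Terc.

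The SRP RNA and 7SK held the highest RPKM values of the whole table in HC2 and low RPKM values in the first round. Low values from few reads do not show that these RNAs were scarce in first-round cells. Rn7s1 held 31952, 40318, 58628 and 40781 RPKM in the HC2 knockouts and 50217, 48661, 60714 and 19723 RPKM in the HC2 wild types. In the first round it held 12.9, 18.0 and 16.3 RPKM in SVZ knockouts, 11.5, 10.8 and 12.5 in SVZ wild types, 3.05, 4.30 and 3.56 in HC1 knockouts and 6.80, 2.65 and 1.81 in HC1 wild types. All 8 second-round libraries stood above all 12 first-round libraries. Rn7s2 differed from Rn7s1 by 0.0256% to 0.672% in each second-round library. The 2 copies ranked 1 and 2 by RPKM in all 8 second-round libraries and no higher than 6874 in any first-round library.

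Rn7sk, the 7SK gene, ranked 3 in all 8 second-round libraries. It held 22085, 34232, 28690 and 29000 RPKM in HC2 knockouts and 34501, 42097, 51775 and 17875 RPKM in HC2 wild types. The first-round values were 18.5, 20.2 and 13.7 RPKM in SVZ knockouts, 14.3, 15.1 and 15.2 in SVZ wild types, 7.49, 14.7 and 5.17 in HC1 knockouts and 4.71, 8.34 and 7.69 in HC1 wild types. Its lowest second-round library was again far above its highest first-round library. The 7SK reads behind these values numbered 153315 to 501928 per second-round library and 20 to 86 per first-round library.

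Rpph1, the RNase P RNA, held 7881, 12292, 11416 and 13924 RPKM in HC2 knockouts and 11720, 16177, 22437 and 4746 RPKM in HC2 wild types. It held 0 to 2.17 RPKM, 0 to 9 reads, in the 12 first-round libraries. Rmrp, the RNase MRP RNA, held 2524, 4113, 4761 and 2657 RPKM in HC2 knockouts and 3666, 3708, 6228 and 1711 RPKM in HC2 wild types, against 0 to 1.40 RPKM in the first round. Per length, the RNase P RNA was 2.40 to 5.24 times as high as the RNase MRP RNA in the second-round libraries. The RNase P RNA-like genes, named after their values were seen, can share reads with Rpph1. Rprl1 averaged 338.8 ± 169.8 RPKM and Rprl2 5.95 ± 3.10 RPKM in the second round (SD, n = 8), and both were at 0 in all 12 first-round libraries.

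The Y RNAs were low in comparison and rested on 39 to 309 reads per second-round library. Rny1 held 32.3, 13.96, 20.3 and 36.3 RPKM in HC2 knockouts and 22.7, 17.2, 52.5 and 13.6 RPKM in HC2 wild types, against 0 to 1.39 RPKM in the first round, where 8 of 12 libraries were at 0. Rny3 held 57.1, 31.4, 39.6 and 62.8 RPKM in HC2 knockouts and 47.1, 32.3, 104.8 and 34.9 RPKM in HC2 wild types, against 0 to 1.52 RPKM in the first round. Rny1 stood at 0.390 to 0.578 of Rny3 in every second-round library.

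The remaining 3 RNAs rested on fewer reads in most libraries, up to 9 per library for Rnu7 and for Rnu5g. Terc held 4 to 46 reads per second-round library, with the 46 in wild-type replicate 5. Rnu7 held 2.07, 4.44, 3.63 and 1.59 RPKM in HC2 knockouts and 5.08, 3.76, 3.87 and 3.75 RPKM in HC2 wild types, from 2 to 9 reads each. Its 3 SVZ knockout libraries held 2.48, 3.77 and 3.81 RPKM, 8 reads in all, while the 3 SVZ wild types and all 6 HC1 libraries were at 0. Rnu7 was therefore the exception to the split by round, with SVZ knockouts inside the HC2 range. A gene of 62 bases needs 3.49 to 4.15 RPKM for 3 reads in a first-round library, so a count of 0 does not show that U7 was absent. Rnu5g held 2.49, 2.08, 1.94 and 0.848 RPKM in HC2 knockouts and 0.603, 0.335, 0.590 and 1.34 RPKM in HC2 wild types, and was at 0 in all 12 first-round libraries. Terc held 0.645, 0.781, 0.567 and 1.36 RPKM in HC2 knockouts and 0.441, 0.783, 3.97 and 0.390 RPKM in HC2 wild types. It was at 0 in 10 of 12 first-round libraries and held 1 read in each of the others.

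**Figure D1:**
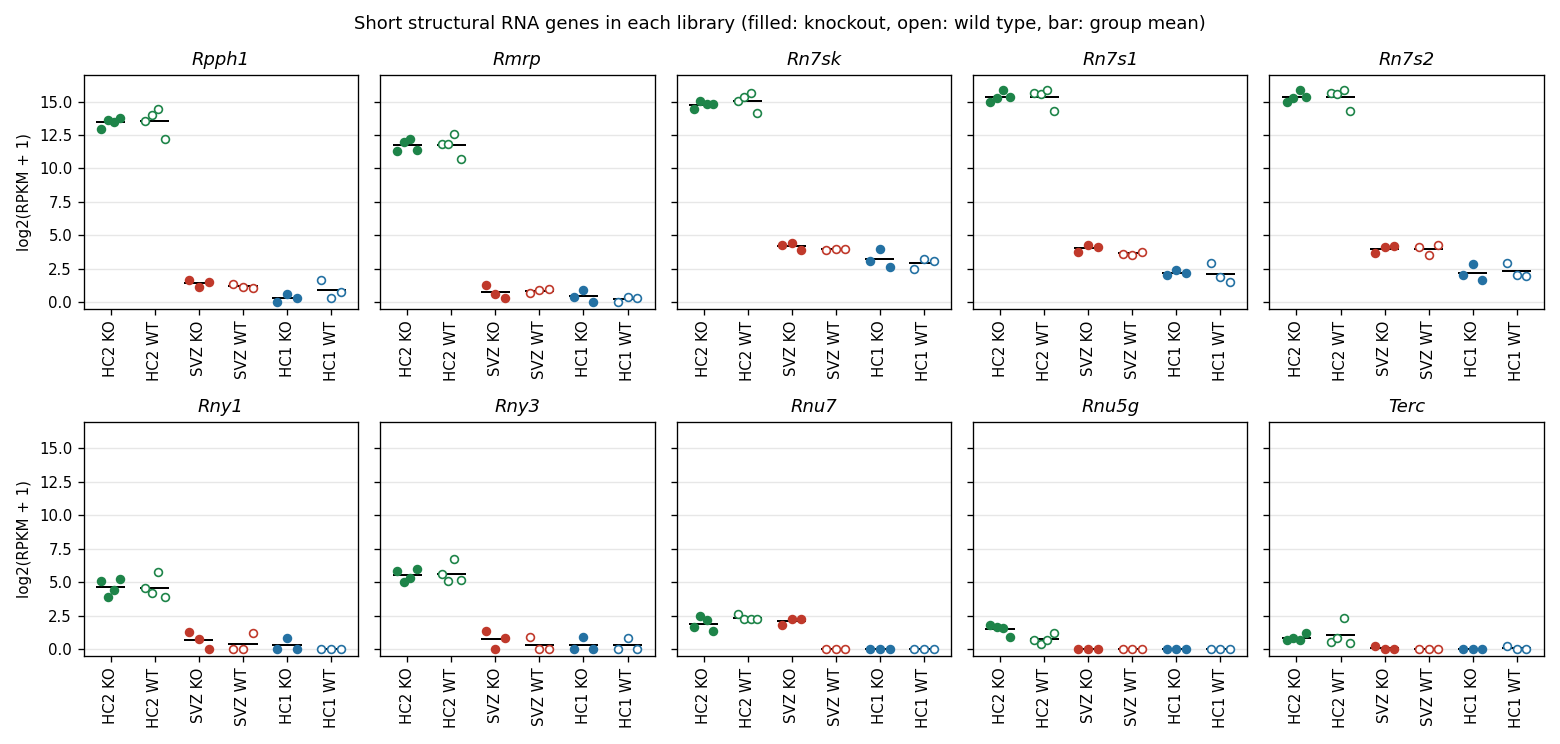
Each panel plots 1 gene as log2(RPKM + 1) in every library, by group, with knockouts filled, wild types open and a bar at the group mean. In all panels except Rnu7 the 8 HC2 points lie above the 12 SVZ and HC1 points, from Rn7s1 at a group mean of 15.35 in HC2 knockouts down to Terc at 0.86.

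Set against HC1 knockouts, male donors at the same culture day, HC2 knockouts were higher in all 10 genes with no overlap. The log2 differences were 13.15 ± 0.35 for Rn7s1, 13.17 ± 0.37 for Rn7s2, 13.13 ± 0.40 for Rpph1, 11.55 ± 0.32 for Rn7sk and 11.28 ± 0.35 for Rmrp, each with its limma standard error. They were 5.26 ± 0.42 for Rny3, 4.37 ± 0.44 for Rny1, 1.91 ± 0.20 for Rnu7, 1.47 ± 0.18 for Rnu5g and 0.86 ± 0.30 for Terc. As ratios of mean RPKM, Rn7s1 was 11807-fold and Rn7sk 3123-fold higher in HC2 than in HC1 knockouts, against 39 and 108 HC1 reads. The ratio for Rmrp was 8529-fold against only 4 HC1 reads, with a counting interval of 3307 to 31076 (95%, exact), and it was 23348-fold without HC1 knockout replicate 2 and 5686-fold without replicate 3. The ratio for Rpph1 was 43819-fold against only 3 HC1 reads, with an interval of 14758 to 209140, and 90304-fold without HC1 knockout replicate 2. For Rny1 and Rny3, with 1 HC1 read each, the ratios were 99.9-fold with an interval of 18.2 to 4043 and 169-fold with an interval of 30.8 to 6830. For the genes at 0 in every HC1 knockout, the floor of 3 reads over the group made Terc at least 3.99-fold, Rnu5g at least 2.56-fold and Rnu7 at least 2.18-fold higher in HC2 knockouts. Intervals and floors cover counting error only. Fitted differences of these 3 genes depend on the constant added before the logarithm and are no bound.

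In that comparison limma with Benjamini-Hochberg adjustment called 10 of 10 members higher, beside 16.1% of the 16403 genes tested. The groups that chose the members include this contrast. The call of Terc was lost in 7 of 14 alternatives, among them each omission of an HC1 library. Groups without overlap made up 17.5% of genes higher and 24.8% lower in HC2 than in HC1 knockouts. All 10 passed the filter on low values, 8 of them also on first-round libraries alone, and Rnu5g and Terc only through HC2. Over both genotypes, 9 of the 10 had all 8 second-round libraries above all 12 first-round libraries, as did 6.96% of genes tested. The labels give 1 library protocol for all 20 samples. Sphere round, depth and anything else that set the second-round libraries apart from HC1 cannot be told apart here.

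The members' reads made up a measurable part of each second-round library. Together the 10 genes took 2.97%, 4.06%, 4.96% and 3.93% of mapped reads in the HC2 knockouts and 4.63%, 4.94%, 6.25% and 1.97% in the HC2 wild types. The first-round libraries gave 0.000352% to 0.00178%. The SRP RNA copies alone took 1.17% to 3.63% in the second round, 58.1% to 70.7% of the members' reads. Taking the members' reads out of the library total would raise every other gene by 0.029 to 0.093 on the log2 scale in second-round libraries and by 0 in first-round ones.

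**Figure D2:**
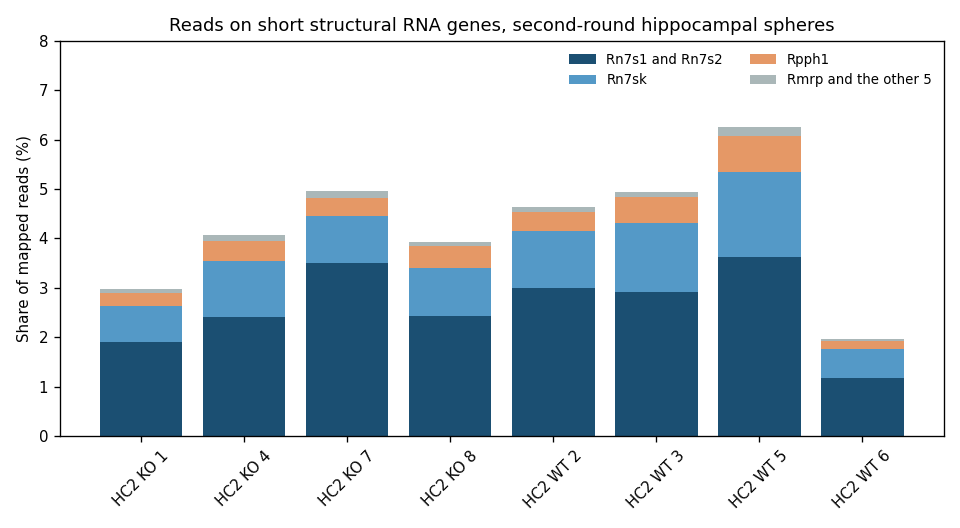
Stacked bars give the share of mapped reads, in percent, on the SRP RNA copies, 7SK, the RNase P RNA and the other 6 genes in each HC2 library, knockouts left of wild types. The total runs from 1.97% in wild-type replicate 6 to 6.25% in wild-type replicate 5, with the 4 knockouts between 2.97% and 4.96%.

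Within the first round, the SRP RNA copies had higher levels in SVZ than in HC1 knockouts with no overlap, while other abundant members differed less clearly. Rn7s1 averaged 15.72 ± 2.601 RPKM in SVZ knockouts and 3.63 ± 0.630 RPKM in HC1 knockouts (SD, n = 3 each), a log2 difference of 1.85 ± 0.37. Rn7s2 averaged 15.3 ± 3.11 and 3.85 ± 2.17 RPKM in the same groups, a difference of 1.82 ± 0.40. Rn7sk averaged 17.5 ± 3.34 RPKM in SVZ and 9.12 ± 4.98 RPKM in HC1 knockouts, a difference of 0.96 ± 0.35, and its groups overlapped. Rpph1 averaged 1.75 ± 0.492 RPKM in SVZ and 0.260 ± 0.264 RPKM in HC1 knockouts, from 22 and 3 reads, with no overlap. Rmrp averaged 0.750 ± 0.579 RPKM in SVZ and 0.412 ± 0.477 RPKM in HC1 knockouts, from 8 and 4 reads, a difference of 0.31 ± 0.37, and its groups overlapped. Of the 10 members, 3 were called higher, Rn7s1, Rn7s2 and Rnu7, and none lower, beside 2.63% and 4.43% of genes tested. As the members were chosen on these groups, nothing is read from that count. Those 3 and Rpph1 had no overlap, as did 19.4% of genes higher and 22.4% lower. Without both SVZ libraries that go against their labels, the differences were 1.75 for Rn7s1, 1.77 for Rn7s2 and 0.86 for Rn7sk, and neither SRP copy was called. The SVZ and HC1 wild types, which also differ in donor sex, stood in the same order for Rn7s1 and Rn7sk. They averaged 11.6 ± 0.893 and 3.75 ± 2.67 RPKM for Rn7s1 and 14.9 ± 0.472 and 6.91 ± 1.94 RPKM for Rn7sk. For Rpph1 the wild types overlapped, at 1.29 ± 0.227 and 1.04 ± 1.00 RPKM, from 16 and 13 reads. Region and culture day differ together in these groups and cannot be told apart.

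Among the 8 second-round libraries the members spread more widely than most genes. The SD of log2(RPKM + 1) over these libraries ran from 0.42 for Rnu7 to 0.67 for Rpph1, with a median of 0.56 over the 10, beside a median of 0.25 over the 16403 genes tested. For Rpph1 90.9% of genes had a smaller SD, and for Rnu7 77.8%. The spread was wider among wild types than knockouts for the 5 abundant RNAs, with SDs of 0.35 in knockouts and 0.96 in wild types for Rpph1. Wild-type replicate 5 was highest and wild-type replicate 6 lowest for all 5 of Rpph1, Rmrp, Rn7sk, Rn7s1 and Rn7s2. The highest library was 4.73 times the lowest for Rpph1, 3.64 times for Rmrp, 2.90 times for Rn7sk and 3.08 times for Rn7s1.

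The RNAs did not all share 1 profile over these libraries. The log2 ratio of Rn7s1 to Rn7s2 had an SD of 0.003 and that of Rny1 to Rny3 an SD of 0.172. Between the 4 distinct abundant RNAs the SDs of the log2 ratios ran from 0.227 for Rmrp to Rn7s1 up to 0.363 for Rpph1 to Rmrp. Y RNAs set against those 4 gave wider ratios, 0.612 to 0.717. Relative to their own HC2 means, knockout replicates 1 and 8 were the high Y RNA libraries after wild-type replicate 5, at 0.44 and 0.60 for Rny1. The same libraries stood at -0.38 and -0.03 for Rn7s1. Rnu5g had its highest value in knockout replicate 1 and its lowest in wild-type replicate 3. It rested on 1 to 9 reads per second-round library, so its order over these libraries says little. These points share library and depth, and no test was made on them.

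**Figure D3:**
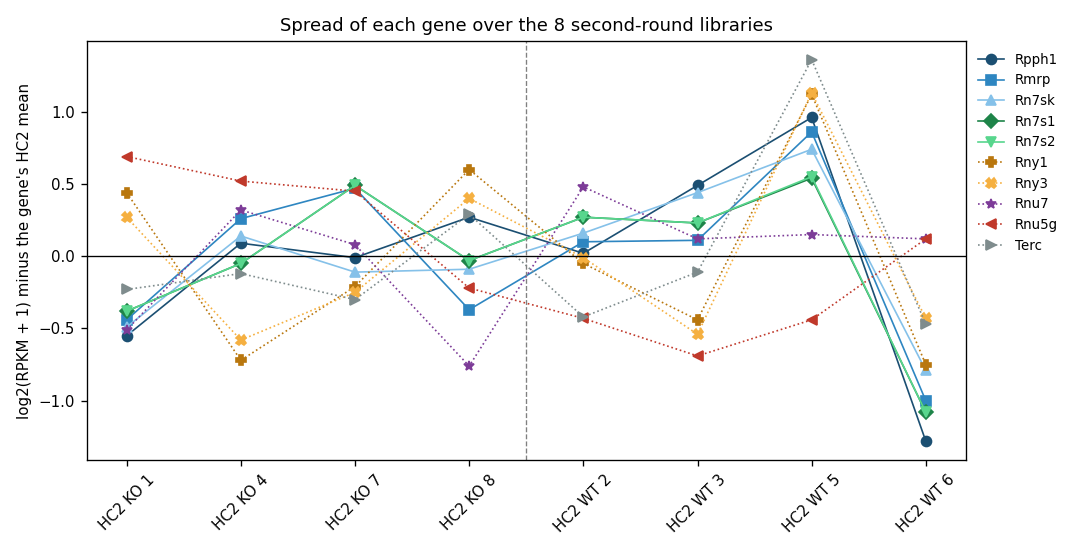
Each line follows 1 gene over the 8 HC2 libraries as log2(RPKM + 1) minus that gene's HC2 mean, with knockouts left of wild types. Lines only join the points of a gene, and the 5 abundant RNAs, drawn solid, peak in wild-type replicate 5 and drop to between -0.79 and -1.28 in wild-type replicate 6.

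Cell cycle genes varied over the same libraries. The mean log2(RPKM + 1) of 28 cell cycle genes was 5.65, 3.99, 5.74 and 3.52 in HC2 knockout replicates 1, 4, 7 and 8 and 5.98, 2.71, 1.68 and 3.68 in wild-type replicates 2, 3, 5 and 6. Wild-type replicate 5, highest in the abundant members, had the lowest cell cycle mean, while wild-type replicate 6, lowest in them, was near the middle. The part of the cell cycle in the members' spread was not tested.

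Between genotypes most member differences were smaller than their standard errors. In HC2, knockout minus wild-type log2 differences were -0.10 ± 0.37 for Rpph1, -0.04 ± 0.32 for Rmrp, -0.27 ± 0.30 for Rn7sk, 0.02 ± 0.32 for Rn7s1 and 0.02 ± 0.35 for Rn7s2. The Y RNAs gave 0.06 ± 0.41 for Rny1 and -0.08 ± 0.38 for Rny3, and Terc gave -0.18 ± 0.28. All these groups overlapped, and the wild types held both the highest and the lowest library for most of them. Without wild-type replicate 5 the differences of Rpph1, Rmrp and Terc were 0.21, 0.25 and 0.25, and without wild-type replicate 6 they were -0.54, -0.38 and -0.36. The sign for these RNAs thus turned with 1 library.

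Rnu5g and Rnu7 had the widest genotype gaps in HC2. Rnu5g averaged 1.84 ± 0.699 RPKM in knockouts and 0.716 ± 0.431 RPKM in wild types (SD, n = 4 each), from 22 and 9 reads, a log2 difference of 0.72 ± 0.17. Leaving out any 1 library kept it between 0.61 and 0.91, yet knockout replicate 8, at 0.848 RPKM, lay under wild-type replicate 6. Rnu7 averaged 2.93 ± 1.33 RPKM in knockouts and 4.11 ± 0.646 RPKM in wild types, from 18 and 28 reads, a difference of -0.44 ± 0.19, with overlap. Both standard errors draw on the spread of all 6 groups. Rnu5g was at 0 in 12 first-round libraries and Rnu7 in 9, which makes these errors smaller. Within HC2 alone, the log2 SDs in knockouts and wild types were 0.40 and 0.34 for Rnu5g and 0.50 and 0.17 for Rnu7. Of the 10 members 0 were called in HC2 by limma at the threshold of 0.05, beside 0.0244% of genes, and 0 had groups that did not overlap, beside 0.719% higher and 0.408% lower.

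In the SVZ, Rnu7 was called higher in knockouts and the other 9 members were not, beside 0.0122% of genes. The members were chosen on these groups, so nothing is read from that call, which was lost without the filter, with only these groups in the fit and with the replicate block. Its 8 knockout reads stood against 0 reads in wild types, where a count of 0 allows up to 1.25 RPKM over the group, and the difference of 2.11 ± 0.22 was 2.03 without the pair of libraries that go against their labels. Both of those libraries matched their labelled group in Rnu7, at 3.77 RPKM in the library labelled knockout replicate 2 and at 0 in that labelled wild type replicate 3. Rn7s1 also had no overlap in the SVZ, at 15.72 ± 2.601 RPKM in knockouts and 11.6 ± 0.893 RPKM in wild types (SD, n = 3 each). The log2 difference of Rn7s1 was 0.40 ± 0.37, and 0.36 without the pair of libraries that go against their labels. Its identical copy Rn7s2 averaged 15.3 ± 3.11 and 15.3 ± 4.20 RPKM in those groups, and since reads of the copies cannot be told apart, that gap cannot be assigned to 1 copy. Groups without overlap made up 3.41% of genes higher and 4.35% lower. Apart from Rnu7, SVZ differences lay between -0.11 ± 0.37 for Rmrp and 0.43 ± 0.44 for Rny3. Without the pair of libraries that go against their labels they lay between 0 for Rnu5g and 0.65 for Rny3. In HC1 the differences lay between -0.61 ± 0.43 for Rpph1 and 0.28 ± 0.47 for Rny1, 0 of 10 members were called, beside 0.0122% of genes, and all groups overlapped, beside 6.63% of genes without overlap higher and 7.05% lower.

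**Figure D4:**
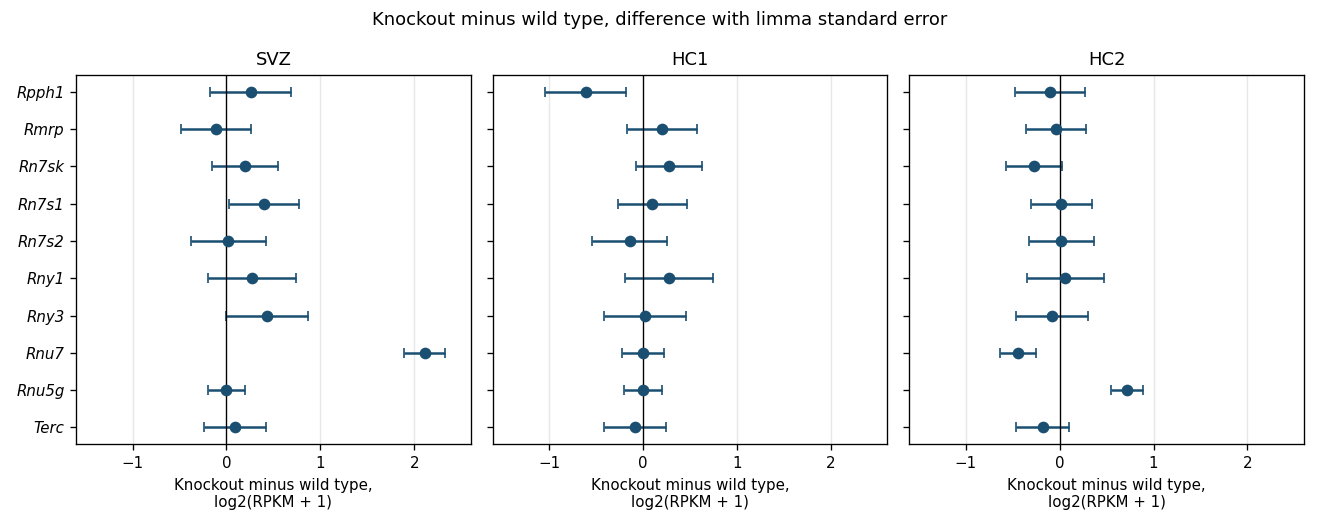
Points give knockout minus wild type on the log2(RPKM + 1) scale for each gene in the SVZ, HC1 and HC2. Bars are the limma standard error, which draws on the spread of all 6 groups. Most bars cross 0, and Rnu7 in the SVZ at 2.11 and Rnu5g in HC2 at 0.72 stand farthest from it.

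Genes next to the members were measured as ordinary mRNAs and tested over all genes. Rps29, a ribosomal protein gene that starts 109 bases from Rn7s1 on the other strand, averaged 14.8 ± 4.12 RPKM in HC2 knockouts (SD, n = 4) and 304.8 ± 34.4 RPKM in HC1 knockouts (SD, n = 3). The log2 difference was -4.31 ± 0.28 (limma, adjusted p = 2.59e-09), opposite to that of its neighbour, and Rps29 has processed copies that can share its reads. Atn1, the atrophin gene 1258 bases from Rnu7, fell likewise, at 4.96 ± 1.75 and 46.0 ± 1.42 RPKM in the same groups (-3.02 ± 0.17, adjusted p = 6.77e-10). Grcc10, 146 bases from Rnu7 on its other side, rose, at 385.0 ± 60.5 and 232.3 ± 27.5 RPKM (0.72 ± 0.16, adjusted p = 0.00174). Parp2, a DNA repair gene that starts 127 bases from Rpph1 on the other strand, averaged 24.6 ± 4.76 and 28.17 ± 1.202 RPKM (-0.20 ± 0.15, adjusted p = 0.300). Ccdc107, 281 bases from Rmrp, averaged 20.7 ± 1.36 and 22.2 ± 1.30 RPKM (-0.10 ± 0.09, adjusted p = 0.387). Neither of these 2 passed the test. Ick, 3188 bases from Rn7sk, fell, at 22.7 ± 4.09 and 39.05 ± 3.60 RPKM (-0.77 ± 0.14, adjusted p = 0.000243). Lrr1, 9221 bases from Rn7s1, fell, at 1.78 ± 1.43 and 4.90 ± 0.418 RPKM (-1.24 ± 0.46, adjusted p = 0.0427), a call kept in 6 of 15 alternatives. Nemf, 3994 bases from Rn7s2, and Pdia4, 7961 bases from Rny1, did not pass (limma, adjusted p = 0.598 and 0.223). None of the neighbours named here differed between genotypes in HC2 (limma, adjusted p of 0.988 or more).

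Over all 20 libraries, the genes most like the 5 abundant members were histone genes. By the root mean square difference of centred log2 profiles, the nearest protein-coding or long noncoding genes to each of Rpph1, Rmrp, Rn7sk, Rn7s1 and Rn7s2 were Hist1h4d and Hist1h4h, at 1.43 for Rmrp to Hist1h4d up to 2.32 for Rpph1 to Hist1h4h. Hist1h4d, a histone H4 gene whose mRNA has no poly(A) tail, averaged 695.5 ± 398.1 RPKM in the second round (SD, n = 8) and 0.653 ± 0.420 in the first (SD, n = 12). For both Y RNAs the nearest were Aldoart2 and Hist1h1c, at 0.65 to 0.81. Rnu7 was nearest to Gng10 and Sox11, Rnu5g to Aga and Coq9, and Terc to Hhipl1 and Rabggta, at 0.21 to 0.68. Those last 3 RNAs had small profiles of their own, with a root mean square of 0.57 to 1.09, so these distances say little.

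Some other classes of short RNA and most histone genes split by round, while most genes that RefSeq lists as small nucleolar RNA did not. RefSeq lists 14 other genes as small nuclear RNA, a class that there also holds the nucleolar U3 RNA. Of these, 9 had all second-round libraries above all first-round ones. Among them was Rnu1a1 of U1, at 46.9 ± 18.2 RPKM (SD, n = 8) and 0 in all 12 first-round libraries. The U3 genes Rnu3a, Rnu3b2, Rnu3b3 and Rnu3b4 were also among the 9, and the U3 gene Rnu3b1 was not. Rnu6, the listed U6 gene, did not split by round, at 0 in all 8 second-round libraries. The split held for 7 of 9 small Cajal body RNA genes and 62 of 67 histone genes. It held for 15 of 124 genes listed as small nucleolar RNA, 12.1%, beside 5.78% of protein-coding genes tested. These genes were picked after values were seen, and no test was made on them.

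The proteins that work with these RNAs were not used to choose the members, and were tested over all genes. All 97 genes of 8 lists were found and passed the filter. Between genotypes 0 of 97 were called by limma in the SVZ, HC1 or HC2, with 1, 4 and 1 at an unadjusted p under 0.05. Median differences of the 97 were 0.02 in the SVZ, 0.02 in HC1 and 0.01 in HC2, near those of all genes. Among the most expressed, Ssb, the La protein that binds new polymerase III transcripts, averaged 170.6 ± 31.9 RPKM in HC2 knockouts and 167.7 ± 46.0 RPKM in HC2 wild types (SD, n = 4 each). Srp14, an SRP protein, averaged 210.3 ± 9.27 and 221.7 ± 16.9 RPKM in those groups. Nor did a difference between knockout effects pass for any partner in the 3 pairs of settings tested, with 1 gene at an unadjusted p under 0.05 in each.

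Partner genes differed between HC2 and HC1 knockouts about as often as genes in general. Of the 97, 36 were called, 37.1%, beside 38.3% of all genes, so the count is no result about the partners. Of these 6 rose and 30 fell, 30.9% lower beside 22.3% of all genes lower, and the median difference was -0.17, beside -0.05 over all genes. With libraries rescaled by their median ratio the counts were 11 up and 22 down, and over all genes 3362 up and 3127 down in place of 2638 and 3650. Leaving out 1 library at a time gave 26 to 36 partners called.

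Sm proteins form the ring on U5 and the other spliceosomal RNAs, and their genes have processed copies that can share reads. Of 16 genes of U5 and the Sm ring, 9 fell and 1 rose, 56.2% lower beside 22.3% of all genes, with a median of -0.39. Not all Sm genes moved, and Snrpb, named after its values were seen, had a difference of 0.01 ± 0.23. Snrpd3 averaged 66.67 ± 14 RPKM in HC2 knockouts (SD, n = 4) and 367.1 ± 48.3 RPKM in HC1 knockouts (SD, n = 3), a log2 difference of -2.46 ± 0.16 (limma, adjusted p = 3.94e-09). Snrpd1 averaged 57.8 ± 15.1 and 209.1 ± 10.0 RPKM in those groups (-1.87 ± 0.20, adjusted p = 1.50e-06). Txnl4a, a U5 protein, rose, at 67.8 ± 15.2 and 49.6 ± 1.16 RPKM (0.42 ± 0.14, adjusted p = 0.0219), a call lost in 6 of 15 alternatives.

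Of 9 telomerase genes 4 fell and none rose, 44.4% lower, with a median of -0.43. They included Gar1, at 5.74 ± 2.99 RPKM in HC2 knockouts and 19.6 ± 2.40 RPKM in HC1 knockouts (-1.72 ± 0.29, limma adjusted p = 0.000167), and Naf1, an assembly factor, at 6.17 ± 1.25 and 14.4 ± 0.327 RPKM (-1.12 ± 0.15, adjusted p = 1.28e-05). Of 7 genes of the 7SK complex and P-TEFb, 1 fell, 14.3%. It was Cdk9, the P-TEFb kinase, at 20.9 ± 1.26 and 40.9 ± 0.974 RPKM (-0.94 ± 0.12, adjusted p = 9.42e-06). Hexim1, named after its values were seen since its protein binds the 7SK hairpin shown above, averaged 51.7 ± 4.73 and 62.8 ± 3.91 RPKM (adjusted p = 0.0595).

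Of 10 genes of the SRP and its receptor, 4 fell, 40.0%, and 1 rose. Srp68 averaged 39.2 ± 2.41 RPKM in HC2 knockouts and 66.7 ± 0.343 RPKM in HC1 knockouts (-0.75 ± 0.07, limma adjusted p = 1.83e-07), and Srpr, a receptor subunit, 17.01 ± 2.424 and 32.9 ± 0.667 RPKM (-0.92 ± 0.14, adjusted p = 5.28e-05). Srp54a, a copy of the signal-binding subunit gene that can share reads with its near-identical copies, rose, at 289.6 ± 25.9 and 113.5 ± 45.4 RPKM (1.42 ± 0.26, adjusted p = 0.000332).

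The RNase P and MRP proteins moved both ways, with 2 of 11 higher and 2 lower, 18.2% lower. Rpp21 rose, at 37.4 ± 3.88 RPKM in HC2 knockouts and 23.0 ± 1.69 RPKM in HC1 knockouts (0.68 ± 0.14, limma adjusted p = 0.00124), while Rpp38 fell, at 7.88 ± 1.96 and 13.7 ± 1.56 RPKM (-0.74 ± 0.17, adjusted p = 0.00214). Of 32 genes of RNA polymerase III and its factors, 2 rose and 7 fell, 21.9% lower, with a median of -0.04 beside -0.05 over all genes. Polr1d, a subunit shared by polymerases I and III, fell, at 87.6 ± 14.7 and 180.9 ± 9.94 RPKM (-1.05 ± 0.13, adjusted p = 9.06e-06), and Gtf3c1, of the TFIIIC complex, rose by 0.30 ± 0.10 (adjusted p = 0.0237), also lost in 6 of 15. Ssb fell by 0.63 ± 0.19 on the log2 scale (adjusted p = 0.0123). Of 10 genes of U7 and histone precursor processing, 2 fell, 20.0%, Casp8ap2 and Srrt, by 0.50 ± 0.18 and 0.50 ± 0.19 (adjusted p = 0.0421 and 0.0466). Each of these calls was kept in only 5 of 15 alternatives, and lost with rescaled libraries and with each omission of an HC1 library. The change of Snrpd3, of 2.46 in size, was the widest among the named partners and smaller than the differences of the 5 abundant RNAs and the Y RNAs, but wider than those of Rnu7, Rnu5g and Terc.

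**Figure D5:**
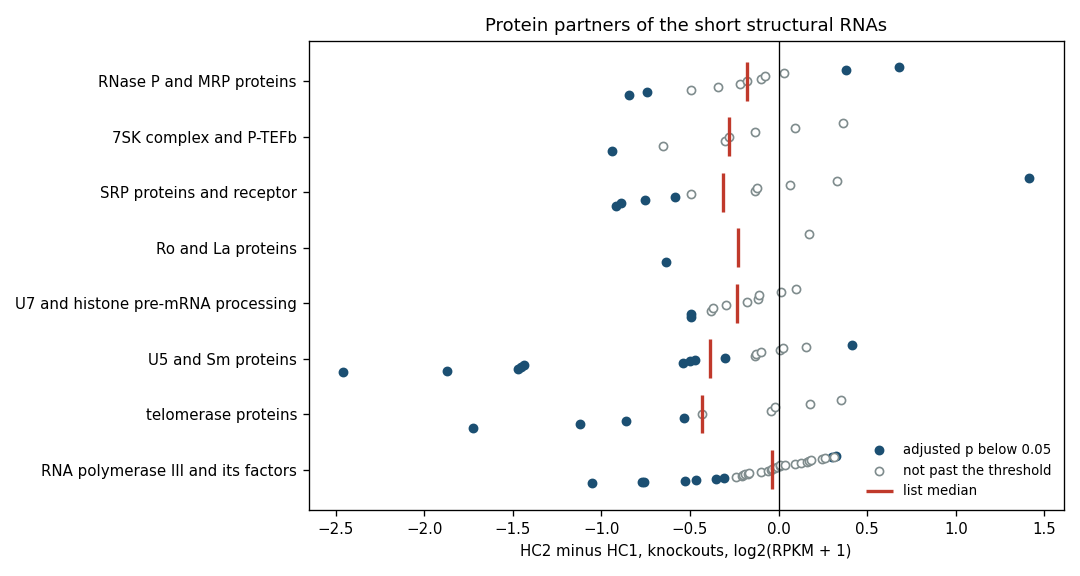
Each point is 1 of 97 partner genes, placed by its HC2 minus HC1 difference in knockouts on the log2(RPKM + 1) scale, filled where the adjusted p is below 0.05, with a bar at each list's median. Called genes lie mostly left of 0, from Snrpd3 at -2.46 to Srp54a at 1.42 on the right.

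SVZ and HC1 knockouts differed in 8 of 97 partner genes, all higher in the SVZ, beside 7.06% of all genes called, 432 up and 726 down, or 685 up and 574 down with rescaled libraries. Nop10 and Nhp2, shared by telomerase and box H/ACA particles, averaged 204.4 ± 44.9 and 178.5 ± 10.8 RPKM in SVZ knockouts, against 98.9 ± 26.6 and 83.8 ± 10.6 RPKM in HC1 knockouts (SD, n = 3 each). Their log2 differences were 1.05 ± 0.26 and 1.09 ± 0.32 (limma, adjusted p = 0.0225 and 0.0484). Polr3k, a polymerase III subunit, rose by 0.77 ± 0.17 (adjusted p = 0.0151) and Snrpd2 by 0.70 ± 0.19 (adjusted p = 0.0351). With any 1 library left out 0 to 3 partner genes passed, 0 of them without HC1 knockout replicate 2, and 1, Nop10, passed without both SVZ libraries that go against their labels.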

How the data were processed

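Per the labels' protocols, the same for all 20 libraries, Trizol RNA went through ribosomal RNA removal, a stranded library kit and exon capture before paired sequencing. FastQC 0.11.5, DESeq2 and the build mm10, or GRCm38, are named in the submitters' processing notes, with no role given. Sources used here name no aligner or counter, nor whether strand was used. The deposited values are linear RPKM per gene, per the file headers, scaled by the authors. They are another unit than counts, so no count model was run, and blanks were read as 0. The authors' table of 36724 genes was used, and their filtered table of 19709 genes only as a gene list.

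The filter asked for 0.5 RPKM or more in 3 or more of 20 libraries and kept 16403 genes, 44.7%. The test scale was log2(RPKM + 1), on which changes of low genes look smaller than they are. A model with 1 mean per group was fitted in limma 3.58.1 (R 4.3.3), with trend and robust settings and 14 residual degrees of freedom, and was first tested on simulated data. Adjusted p-values are two-sided, after Benjamini-Hochberg adjustment over all kept genes. They measure the spread between these libraries. Standard errors draw on the spread of all 6 groups, so groups at 0 make them smaller, and they can understate the spread within HC2. Depth was taken from the steps between low values, as one that made a share of at least 0.95 of them whole reads. A value within 0.02 of a read counted as whole. The share reached, 96.8% to 100%, was part of that search and is no separate check of the depth.

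The members and the partner lists were chosen with earlier results of these data known. Named are up to 2 called partners per list and direction, the nearest tested genes within 10000 bases of a member, and the 2 genes of the most similar profile. In lists with no call, values come from the 2 most expressed genes. Predicted genes and clones were counted, not named. Members have no p-value. Sequences of 5 members were read from the GENCODE M21 transcripts, those of the others are not reported here, and Y RNAs were aligned end to end in Biopython 1.88. Alternatives covered the added constant, the filter, scaling, samples in the fit, a cell cycle covariate, library weights, the replicate number and omission of libraries.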

Additional observations from a re-analysis of the deposited data

Results flagged for a closer look

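In 6 of 84 groups of 4 libraries, 1 library lay far from the other 3 by Dixon's ratio, and chance alone flags about 1 group in 20. All 6 were HC2 wild-type groups, and in 5 of them the library was replicate 2. Among the members this was Rnu7, at 5.08 RPKM in wild-type replicate 2, from 9 reads. Among the partner genes, wild-type replicate 2 was highest for Nhp2 at 138.3 RPKM, Snrpd1 at 79.1 RPKM, Snrpd3 at 81.7 RPKM and Srrt at 113.9 RPKM. Wild-type replicate 6 was lowest for Naf1, at 4.73 RPKM. The mean log2 level of the 28 cell cycle genes was also highest in wild-type replicate 2, at 5.98. Its part in these values was not tested.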

How the results depend on the processing

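No called difference of a member or named gene changed sign under the alternatives run. Uncalled HC2 genotype differences of Rpph1, Rmrp, Rn7s1, Rn7s2, Rny1, Rny3 and Terc did with 1 library left out. Under median-ratio scaling the majority of calls over all genes turned from lower to higher, 685 higher and 574 lower for SVZ against HC1 knockouts and 3362 and 3127 for HC2 against HC1 knockouts. Of 730 refitted member differences 699 moved by less than the spread between replicates, and 31 moved by more. These 31 came from 2 settings. With 0.1 added before the logarithm 23 moved and 27 did not, and with the cell cycle covariate 8 moved and 42 did not. The 330 refits with 1 library left out, which make up much of the total, had 0 moved. Leaving 1 library out cannot shift a group difference by that spread, so this count was fixed in advance. Refits that changed only the filter, the gene list, the groups in the fit or the block left group means as they were. Their counts of 0 moved are no check either, so most of the 699 say little. Partner calls between genotypes were 0 under all alternatives. Genes called between SVZ genotypes, 2 as reported, were 1 with 0.1 added before the logarithm, 0 without the filter, 0 with only the groups compared, 9 with library weights, and 2 to 5 with 1 library left out. In HC1, 2 as reported, they were 5 without the filter, 4 with the cell cycle covariate, 8 with library weights and 1 to 2 with 1 library left out. In HC2, 4 as reported, they were 0 over the authors' filtered genes, 7 with the cell cycle covariate and 4 to 26 with 1 library left out, 26 without wild-type replicate 2. Between SVZ and HC1 knockouts, 1158 genes and 8 partners as reported became 14 and 0 without the filter, 3341 and 25 with only these groups, 5081 and 31 with library weights, 281 and 1 without both SVZ libraries that go against their labels, and 197 to 1013 and 0 to 3 with 1 library left out. Partners were 5 over the authors' filtered genes. Between HC2 and HC1 knockouts, 6288 genes and 36 partners as reported became 3423 and 16 without the filter, which also tests more genes. The causes were not tested.

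In the 3 comparisons with a block, libraries of the same replicate number did not deviate together, with correlations of -0.26 to 0.01, and there they share only a number. Knockout libraries with the same mouse number gave -0.03 for mouse 1 in HC2 and HC1 and 0.02 for mouse 4 in HC2 and the SVZ. Wild-type libraries, male in HC2 and the SVZ, gave 0.02 for mouse 5 and -0.05 for mouse 6. Each number gave 1 pair, too few for a paired fit. With the replicate number as a block, and only the groups compared, 0 genes were called between SVZ genotypes, 0 between HC1 genotypes, and 473 genes with 2 partners between SVZ and HC1 knockouts. No paired analysis was possible in HC2 because its knockout and wild-type libraries share no number. The depth limits Rnu7, Rnu5g and Terc, which rest on 46 reads or fewer in any library. Leaving the members' reads out of the library total was chosen after seeing the data.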
